A study of Mus musculus with 20 samples.

Results

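Mast cells are tissue-resident immune cells that store proteases, histamine and proteoglycans in granules and release them on activation, classically when antigen crosslinks IgE held by the high-affinity IgE receptor. Connective tissue mast cells, the kind that sits around vessels in fat and skin of mice, are known for chymases, tryptases and a carboxypeptidase, whereas mucosal mast cells make other chymases. They depend on the receptor KIT and its ligand, stem cell factor, and they are known to gather in fat of obese animals. The 8 genes described here are markers of these cells, taken by gene symbol from a table of 48440 gene IDs: the proteases Tpsb2, Cma1, Mcpt4 and Cpa3, the histamine-forming enzyme gene Hdc, and the receptor genes Kit, Fcer1a and Ms4a2. All 8 were found, each with 1 row.

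Gonadal fat pads and livers were sampled in a study of PKCepsilon deficiency, in mice on the C57BL/6 background. Mice with the genotype label AdEpsKO are called KO and mice with the label WT are called WT. Every mouse had been given a diet high in fat for 1 week and had fasted for 6 h before its tissues were taken, so there was no group on another diet. There were 4 groups (WT fat, KO fat, WT liver and KO liver) with 5 libraries each, and the labels give neither the age and sex of the mice nor the allele or the cells in which the gene was deleted. KO liver means liver of mice that carry this label. Expected counts, which share out reads among genes they match, summed to between 12880933 and 17276907 per fat library and between 13836370 and 20784145 per liver library. Levels are given as CPM, counts scaled to the size of the library, with the scaling set within each tissue.

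The targeted gene, Prkce, lay at 22.3 to 35.1 CPM in KO fat and 35.2 to 67.1 CPM in WT fat, and at 8.64 to 14.3 CPM in KO liver and 10.6 to 19.96 CPM in WT liver. Some fat libraries carried transcripts of other tissues. KO fat library 2 had a summed level of 6 urothelial genes of 1777 CPM where no other fat library exceeded 29.4 CPM, and WT fat library 5 had the highest level of 10 uterine and oviduct epithelial genes among WT fat libraries (132.4 CPM). KO fat library 2 also had 862.0 CPM of the latter list and 8538 CPM of 8 smooth muscle genes. In that list Krt18, Krt8, Cdh1 and Wfdc2 reached 340.8, 280.7, 140.3 and 97.35 CPM in KO fat. No other gene of the list exceeded 2.39 CPM in KO fat. The list also summed to 192.1 to 281.1 CPM in WT liver, so its sum is not a measure of uterus or oviduct alone. WT fat library 4 and KO fat library 3 held the most hepatocyte transcripts, at 616.0 and 536.7 CPM over 8 genes, and 12 macrophage genes reached 3943 CPM in WT fat library 3. The sum of 8 skeletal muscle genes ran from 17.3 to 875.5 CPM in WT fat and from 18.8 to 569.6 CPM in KO fat. It was highest in WT fat library 2 and, within KO fat, in library 2. The defining adipocyte genes were high in each fat library, with a sum over 8 genes of 19780 to 37020 CPM.

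The protease genes do not all sit in the same place of the genome, though Cma1 and Mcpt4 share a cluster. In GRCm38 with the GENCODE M21 annotation, Tpsb2 (ENSMUSG00000033825) lies on chromosome 17 from 25366305 to 25369098 on the plus strand, in the tryptase cluster. Cma1 (ENSMUSG00000022225, chromosome 14, 55941451 to 55944675) and Mcpt4 (ENSMUSG00000061068, chromosome 14, 56059629 to 56062313), both on the minus strand, belong to the chymase cluster. Cpa3 (ENSMUSG00000001865) lies on chromosome 3 from 20215620 to 20242181 and Hdc (ENSMUSG00000027360) on chromosome 2 from 126593667 to 126619299, both on the minus strand. Kit (ENSMUSG00000005672) lies on chromosome 5 from 75574916 to 75656722 on the plus strand. The IgE receptor subunit genes Fcer1a (ENSMUSG00000005339, chromosome 1, 173221284 to 173227214) and Ms4a2 (ENSMUSG00000024680, chromosome 19, 11615523 to 11623719) are on the minus strand. Tpsb2, Cma1 and Mcpt4 have close relatives beside them, so reads could be split between copies by the counting. The expected count of every member was a whole number in all 20 libraries.

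The sequences before the start sites are shown for 3 proteases whose levels moved together over the fat libraries and for Kit, whose level had negative correlations with theirs. RefSeq promoters of GRCm38.p6 were matched for 7 of the 8 members. The motif searched was GATAA on either strand (TTATC on the other), the core of the site bound by GATA factors such as GATA2, a transcription factor that mast cells need. It was found within 250 bases before a start site in 5 of 7 members (Cma1, Mcpt4, Cpa3, Fcer1a and Ms4a2), and in 22.6% of all 32851 promoters of the same length. The sequences of Cma1 (chr14:55944676-55944925, minus strand), Mcpt4 (chr14:56062311-56062560, minus strand), Cpa3 (chr3:20242182-20242431, minus strand) and Kit (chr5:75574737-75574986, plus strand) follow in the direction of transcription, with GATAA or TTATC in capitals.
Cma1: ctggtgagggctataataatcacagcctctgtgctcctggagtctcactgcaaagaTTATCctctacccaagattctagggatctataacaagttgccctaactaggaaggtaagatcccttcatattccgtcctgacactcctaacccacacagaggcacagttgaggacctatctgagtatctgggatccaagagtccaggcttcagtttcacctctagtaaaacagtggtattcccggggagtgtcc
Mcpt4: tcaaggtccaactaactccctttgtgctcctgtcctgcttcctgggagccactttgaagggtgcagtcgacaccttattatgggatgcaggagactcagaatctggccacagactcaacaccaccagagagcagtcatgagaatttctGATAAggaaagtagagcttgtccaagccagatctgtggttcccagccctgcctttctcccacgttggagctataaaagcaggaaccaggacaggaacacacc
Cpa3: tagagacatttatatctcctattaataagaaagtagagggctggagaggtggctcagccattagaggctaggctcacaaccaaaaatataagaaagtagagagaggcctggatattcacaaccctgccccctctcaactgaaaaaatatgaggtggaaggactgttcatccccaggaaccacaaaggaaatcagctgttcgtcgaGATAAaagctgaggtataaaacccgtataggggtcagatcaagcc
Kit: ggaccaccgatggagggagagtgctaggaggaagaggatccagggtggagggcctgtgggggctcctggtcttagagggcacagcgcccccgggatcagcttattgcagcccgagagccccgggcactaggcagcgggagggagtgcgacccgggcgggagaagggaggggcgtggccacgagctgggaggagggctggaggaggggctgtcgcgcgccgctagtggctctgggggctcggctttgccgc
Counted from the start site, the match lay at -194 to -190 in Cma1, on the opposite strand, at -102 to -98 in Mcpt4 and at -45 to -41 in Cpa3. The core promoter sequence TATAAA, searched on both strands, was found in 3 of 7 members (Mcpt4, Cpa3 and Fcer1a) and in 12.4% of all promoters. In Mcpt4 it lay at -32 to -27 and in Cpa3 at -31 to -26. No GATAA was found in the windows of Hdc and Kit. These matches describe letters in a window, and no binding was measured.

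In fat, transcripts of the 4 granule proteases were low but present in every library, and their means in KO fat were between 0.51 and 0.58 times those in WT fat. Hdc had a mean ratio of 0.48, and Kit, the member with the highest CPM, had a ratio of 1.10. None of the 6 members that could be tested passed the test over all genes, in which edgeR called 0 of 14707 genes (0.0%) with a threshold of 0.05 on the adjusted p. Without adjustment, 4 members (Tpsb2, Cma1, Mcpt4 and Hdc) had a p below 0.05, all lower in KO, as did 1048 genes in all (7.13%), of which 535 were lower (3.64%). A difference below 0 was found for 5 of the 6 members and for 49.9% of all genes. The members were chosen with earlier results of these data known, so these shares are no test of the set. For none of the 8 members did the KO and WT ranges separate, against 187 of all genes tested (1.27%). Other tools called 13 genes (DESeq2) and 0 genes (limma-voom), none of them a member. The 4 proteases and Hdc are markers of the same cells, so their 5 differences are not separate pieces of evidence, and in bulk tissue fewer mast cells and less RNA per mast cell cannot be told apart.

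**Figure D1:**
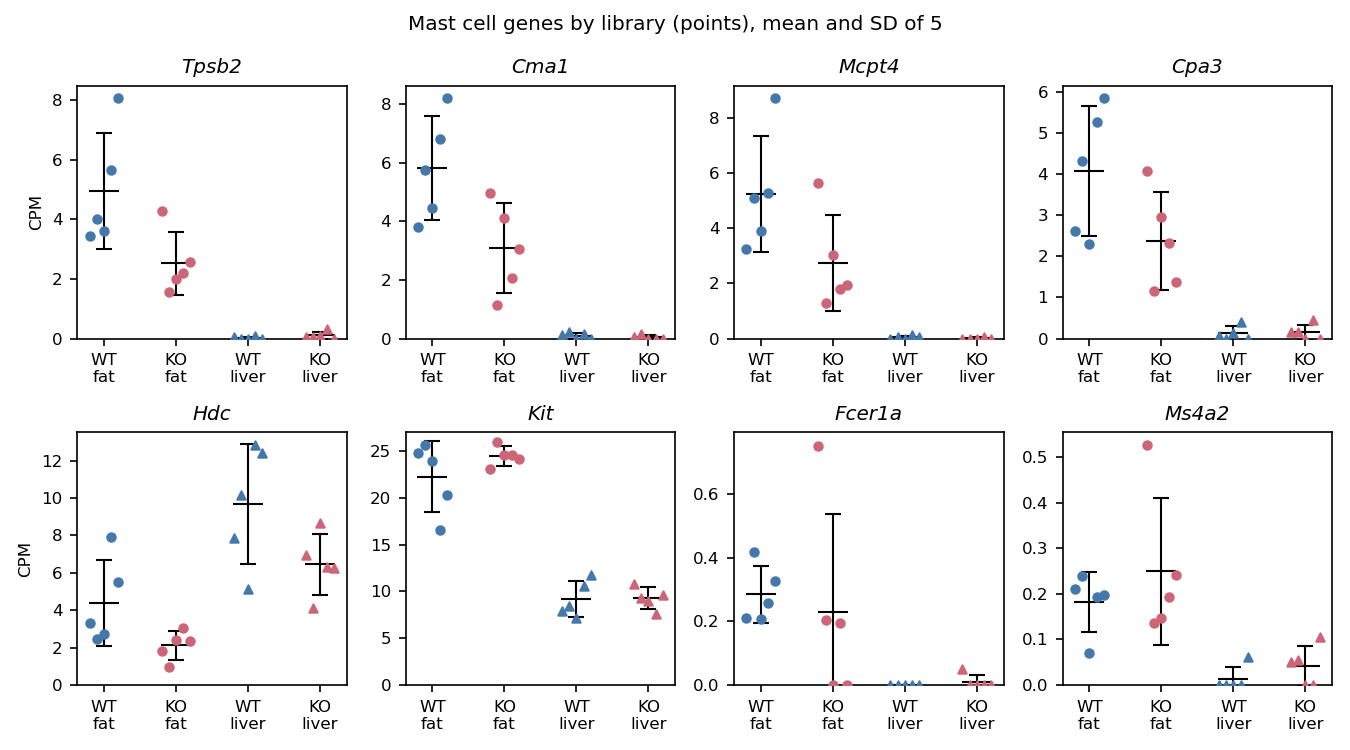
Level of each mast cell gene in CPM (vertical axis, own scale per panel) in 5 libraries per group; each point is a library, and black bars show the mean with its SD. The protease points of fat lie above those of liver, KO and WT fat points overlap for every gene, and Hdc is higher in liver than in fat.

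Tpsb2, a tryptase of connective tissue mast cells, stood at 3.46, 4.01, 3.61, 5.65 and 8.07 CPM in WT fat libraries 1 to 5. In KO fat libraries 1 to 5 it stood at 4.29, 1.57, 1.99, 2.20 and 2.58 CPM. KO library 1 lay within the WT range, and the other 4 KO libraries lay below the lowest WT library. The means were 2.53 ± 1.05 CPM in KO and 4.96 ± 1.95 CPM in WT (SD, n = 5 each), a ratio of 0.509 (95% interval 0.307 to 0.845, adjusted p 0.687 by edgeR).

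Cma1 encodes a granule serine protease of the chymase family. Its levels in WT fat were 3.81, 5.75, 4.45, 6.81 and 8.21 CPM. In KO fat they were 4.97, 1.16, 4.12, 2.07 and 3.07 CPM. Here 2 KO libraries (1 and 3) lay within the WT range and 3 below it. The ratio was 0.530 (0.299 to 0.937), and edgeR gave an adjusted p of 0.687.

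Mcpt4, the chymase regarded as the counterpart of human chymase in substrate preference, stood at 3.25, 5.09, 3.89, 5.27 and 8.73 CPM in WT fat. The KO fat libraries held 5.65, 1.29, 3.02, 1.81 and 1.94 CPM. Again KO library 1 lay inside the WT range, above 4 of its 5 libraries, and the other 4 lay below it. The ratio was 0.522 (0.277 to 0.985), and the adjusted p by edgeR was 0.687.

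Cpa3, the mast cell carboxypeptidase, which trims peptides cut by the chymases, had WT fat levels of 2.61, 4.31, 2.29, 5.27 and 5.84 CPM. Its KO fat levels were 4.07, 1.16, 2.94, 2.33 and 1.37 CPM. Only libraries 2 and 5 of the KO group lay below the lowest WT library. The interval of the ratio, 0.584 (0.321 to 1.06), included 1, and its adjusted p by edgeR was 0.687.

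Summed over the 4 proteases, the level was 13.1, 19.2, 14.2, 22.99 and 30.9 CPM in WT fat and 18.98, 5.18, 12.1, 8.41 and 8.96 CPM in KO fat. The WT mean was 20.1 ± 7.21 CPM and the KO mean 10.7 ± 5.23 CPM (SD, n = 5 each). WT fat library 5 was the highest of the 10 libraries and KO fat library 2 the lowest, the same libraries that carried uterine and urothelial transcripts. Without both of them, in a fit added after the data were seen, the median log2 difference of the 6 tested members moved from -0.93 to -0.52, and each member had an adjusted p of 0.99959 by edgeR. In that fit the log2 difference was -0.59 for Tpsb2, -0.55 for Cma1, -0.49 for Mcpt4, -0.43 for Cpa3 and -0.76 for Hdc. The median over all genes tested was 0.00 in the fit with all libraries. How far the other transcripts in those libraries bear on the protease levels was not tested.

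Hdc, which encodes histidine decarboxylase, the enzyme that makes histamine, stood at 3.32, 2.46, 2.71, 7.90 and 5.51 CPM in WT fat. In KO fat it stood at 1.81, 0.954, 2.43, 3.04 and 2.34 CPM. WT libraries 4 and 5 stood apart above the rest, and the ranges overlapped through KO library 4 alone. The ratio was 0.484 (0.264 to 0.887, adjusted p 0.687 by edgeR). KO library 1, which had the highest protease level of the KO group, had its second-lowest Hdc level.

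Kit encodes the receptor for stem cell factor, on which mast cells depend. The WT fat libraries held 24.8, 25.7, 23.9, 16.6 and 20.3 CPM. The KO fat libraries held 23.0, 26.0, 24.6, 24.6 and 24.1 CPM. The spread of the KO libraries, with a coefficient of variation of 4.38%, was no larger than the 5.42% that counting alone gives at their mean count, and in WT fat it was 17.0% against 5.44%. The ratio of 1.10 (0.919 to 1.32) had an adjusted p of 0.812 by edgeR. Kit is also made by melanocytes, interstitial cells of Cajal and blood progenitors, and its level is therefore not a measure of mast cells alone. Of lists for those cells, Cd34 stood at 224.0 ± 52.7 CPM and Ano1 at 34.9 ± 7.64 CPM in WT fat (SD, n = 5), and of the melanocyte genes Dct stood at 1.96 ± 0.755, Pmel at 0.876 ± 0.281, Sox10 at 0.849 ± 0.239 and Mlana at 0.0400 ± 0.0367 CPM. The part of other cells in the Kit level was not tested.

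The IgE receptor genes were near the limit of detection. Fcer1a, the IgE-binding alpha chain, had 3, 7, 3, 4 and 5 counts in WT fat and 10, 3, 0, 3 and 0 counts in KO fat. Ms4a2, the signal-amplifying beta chain, had 3, 4, 1, 3 and 3 counts in WT fat and 7, 2, 2, 3 and 3 counts in KO fat. Neither passed the filter on low counts, so neither was tested. Pooled over libraries, the KO to WT ratio was 0.805 for Fcer1a (95% counting interval 0.395 to 1.61) and 1.34 for Ms4a2 (0.624 to 2.95). These intervals cover counting error only. Both genes were highest in KO fat library 1, the KO library with the highest protease level. Without that library, a setting added after the data were seen, the ratio was 0.377 for Fcer1a (0.125 to 0.959) and 0.987 for Ms4a2 (0.392 to 2.39). Only the KO library with the most counts was left out and no WT library, so a lower ratio was fixed in advance. The values show how far the pooled ratios rest on 1 library, and they are no test of KO against WT.

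**Figure D2:**
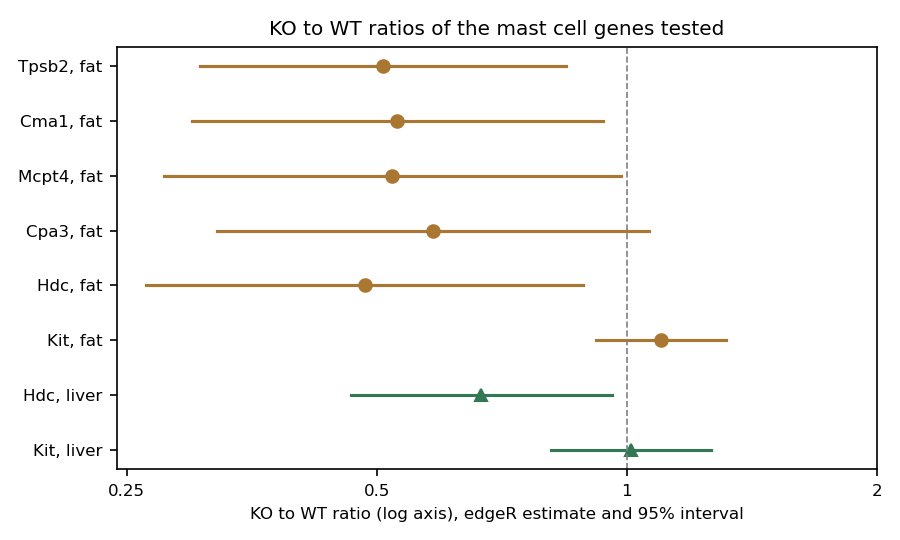
KO to WT ratio of each tested mast cell gene on a log axis, with the 95% interval of the edgeR fit (circles fat, triangles liver). The intervals of Tpsb2, Cma1, Mcpt4 and Hdc in fat and of Hdc in liver end below 1, those of Cpa3 and Kit include 1, and no gene passed the adjusted test.

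Divided by transcript length, so that genes can be compared, the mean levels in WT fat ran in the order Cma1 (5.32 ± 1.63 CPM per kb), Mcpt4 (4.73 ± 1.91), Kit (4.25 ± 0.722), Tpsb2 (3.85 ± 1.51), Cpa3 (2.81 ± 1.09), Hdc (1.83 ± 0.965), Fcer1a (0.285 ± 0.0894) and Ms4a2 (0.0761 ± 0.0274), as SD over 5 libraries. Among the first 6, the SD ranges of neighbours overlapped, and the steps from Hdc down to Fcer1a and from Fcer1a to Ms4a2 exceeded the spread. In KO fat the order was Kit (4.67 ± 0.205 CPM per kb), Cma1 (2.82 ± 1.40), Mcpt4 (2.47 ± 1.57), Tpsb2 (1.96 ± 0.817), Cpa3 (1.64 ± 0.822), Hdc (0.884 ± 0.327), Fcer1a (0.231 ± 0.309) and Ms4a2 (0.104 ± 0.0673). The length used is that of the longest coding transcript. The place of Kit depends on that choice. With the length of all exons of a gene, Kit stood below Tpsb2 and Cpa3 in WT fat (2.50 against 3.11 and 2.68 CPM per kb), and in KO fat it stood below Cma1 (2.75 against 2.82 CPM per kb).

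The spread of the proteases between libraries was wider than counting alone gives. In WT fat the coefficient of variation of Tpsb2 was 39.2% against 11.5% from counting alone, that of Cma1 30.6% against 10.6%, that of Mcpt4 40.5% against 11.2% and that of Cpa3 38.7% against 12.6%. In KO fat the same values were 41.7% and 17.0% for Tpsb2, 49.8% and 15.5% for Cma1, 63.5% and 16.4% for Mcpt4, and 50.2% and 17.5% for Cpa3.

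The 4 proteases varied together across the fat libraries. Over the 10 fat libraries, the log2 CPM of Cma1 and Mcpt4 had a Pearson r of 0.949 (permutation p = 2e-05) and a Spearman rho of 0.952 (permutation p = 0.00013). All 6 pairs among the 4 proteases had r from 0.842 to 0.949 and rho from 0.806 to 0.952, with p-values adjusted over the 15 pairs of members between 0.0003 and 0.0057 for r (permutation test). After subtraction of each genotype's mean, r of the 6 pairs was 0.761 to 0.912. Without the 2 libraries farthest from the median of the pair's first gene, r was 0.682 to 0.943. The first gene follows the order Tpsb2, Cma1, Mcpt4, Cpa3, Hdc and Kit, so the libraries left out can differ between pairs. WT library 5 was the highest and KO library 2 the lowest of all 10 for each of the 4 proteases. The proteases were chosen as markers of the same cells, and all pairs share the same libraries.

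Hdc had r from 0.615 to 0.739 and rho from 0.442 to 0.588 in its 4 pairs with the proteases. The adjusted permutation p-values were 0.0279 to 0.0649 for r and 0.118 to 0.201 for rho. Within genotype its r was 0.348 to 0.545, and without the 2 farthest libraries it dropped to 0.173 with Mcpt4. The difference between these correlations and those among proteases was not tested. Kit had negative values with all 5 others, with r from -0.816 (Hdc) to -0.565 (Mcpt4). The adjusted permutation p-values were 0.00645 (Hdc) to 0.0881 (Mcpt4) for r, with 0.0302 for Tpsb2, and 0.0504 to 0.201 for rho. Its pair with Hdc had rho = -0.455 (permutation p = 0.192). Without WT library 4 and KO library 2, the 2 farthest from the median of Hdc, r was -0.615. WT library 5 was kept in that value. WT libraries 4 and 5, with the lowest Kit and the highest Hdc levels of the 10, lie at the end of that relation.

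**Figure D3:**
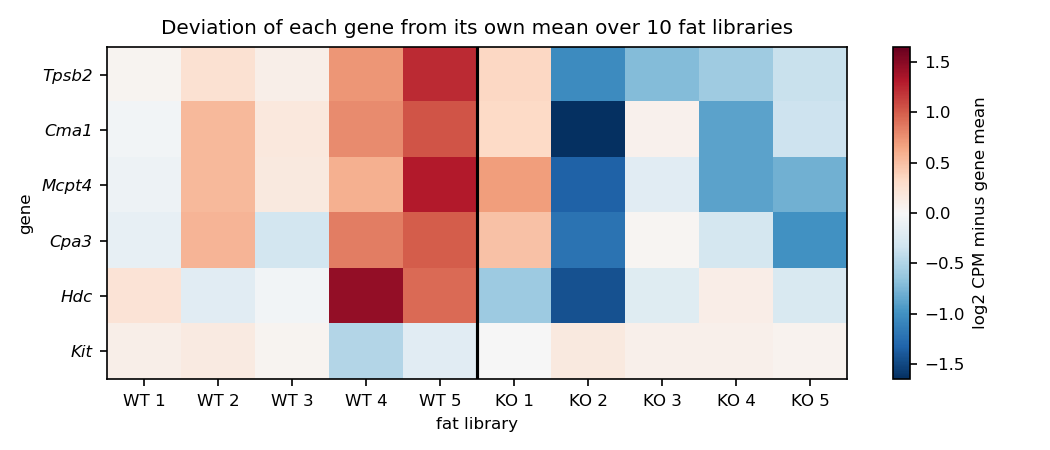
Log2 CPM of 6 mast cell genes (rows) in 10 fat libraries (columns) minus each gene's mean over them, on a color scale from blue (lower) to red (higher). The 4 proteases are high in WT 5 and low in KO 2 together, whereas Kit stays near its mean except in WT 4.

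**Figure D4:**
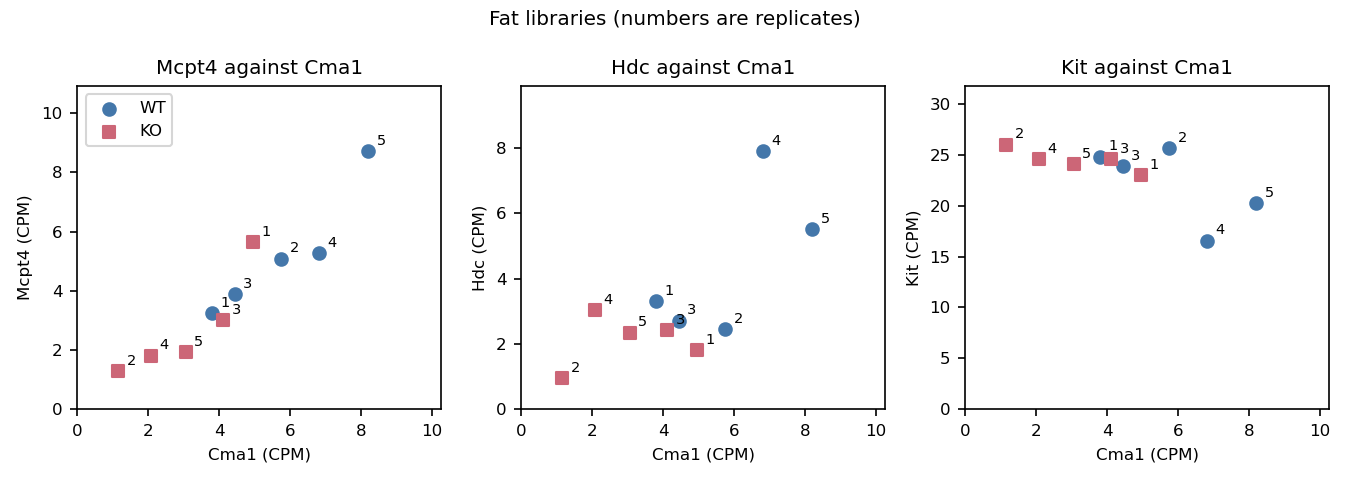
Levels in CPM of Mcpt4, Hdc and Kit (vertical axes) against Cma1 (horizontal axes) in 5 WT and 5 KO fat libraries, numbered by replicate. Mcpt4 rises with Cma1 in both genotypes (r of log2 CPM 0.949), Hdc is set apart by WT libraries 4 and 5, and Kit is lowest in WT 4.

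A mast cell score, the mean over the 6 members with at least 1 CPM in fat of log2 CPM minus each gene's own mean, ran from -1.08 in KO library 2 to 0.89 in WT library 5. It was 0.02, 0.31, 0.02, 0.65 and 0.89 in WT libraries 1 to 5 and 0.21, -1.08, -0.15, -0.41 and -0.45 in KO libraries 1 to 5. KO library 1 was above 2 WT libraries, and the other 4 KO libraries were below all WT libraries. Among 14331 other genes, the 10 whose log2 CPM went most closely with this score over the 10 libraries were C1s1 (r = 0.969), Oat (0.958), Xpnpep2 (0.940), Rhpn2 (0.932), C3 (0.917), Evc2 (0.914), Gabarapl1 (0.907), Htra3 (0.906), Vit (0.901) and Sult5a1 (0.897). The ranking picks the highest of many values, so these are a description. C1s1 and C3 encode complement proteins and Oat a mitochondrial aminotransferase. C1s1 stood at 407.3 ± 52.0 CPM in WT fat and 312.2 ± 47.5 CPM in KO fat (SD, n = 5 each), and its r within genotype was 0.939. None of these 10 genes passed the KO against WT test, with ratios from 0.545 (Vit) to 0.889 (Gabarapl1).

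Other genes linked to mast cells were read next. Of 20 further genes, 9 could be tested in fat, 0 were called, and 3 had a negative difference (median log2 difference 0.17, against 0.00 over all genes). The mucosal chymase genes Mcpt1 and Mcpt2, together with Mcpt9 and Cma2, were at 0 in all 10 fat libraries. Tpsab1, the tryptase gene next to Tpsb2, had 21 counts over the 5 WT and 10 over the 5 KO fat libraries, a pooled ratio of 0.527 (95% counting interval 0.222 to 1.17). Of those 10 counts 8 were in KO library 1, and without it the ratio was 0.132 (0.0150 to 0.539). Leaving out the KO library with the most counts fixed this fall in advance, so it is no test of KO against WT. Mrgprb2, the receptor by which peptides and drugs activate connective tissue mast cells, had 30 and 17 counts, and its relative Mrgprb1 had 75 and 47 counts, an edgeR ratio of 0.713 (0.342 to 1.49). Slc18a2, which loads histamine into granules, had a ratio of 1.12 (0.663 to 1.90), and Il1rl1, the receptor for Il33, stood at 8.05 ± 1.09 CPM in WT and 7.64 ± 1.22 CPM in KO fat (SD, n = 5 each), a ratio of 0.949. These single genes were chosen after their values were seen.

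The 4 most abundant genes of that list are made by other cells too. Mitf stood at 19.4 ± 4.30 CPM in WT and 19.5 ± 6.52 CPM in KO fat, and Gata2 at 17.9 ± 5.04 and 21.1 ± 13.0 CPM (SD, n = 5 each). Hpgds stood at 15.8 ± 14.9 CPM in WT and 19.3 ± 17.8 CPM in KO fat, and Lat2 at 13.5 ± 18.3 and 18.1 ± 19.9 CPM. The SD of the last pair exceeds or nears their mean, and the 12 macrophage genes varied between libraries as well, from 766.5 to 3943 CPM. Rab27b, which serves granule release, reached 116.8 CPM in KO fat library 2, the library with urothelial transcripts, and at most 3.55 CPM in WT fat. Cd200r3 reached 16.3 CPM in the same library and at most 0.514 CPM in WT fat. Both were named after their values were seen. Cd200r3 could not be tested in fat and so has no part in the list's median, and the part of Rab27b in it was not tested.

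The signalling chain below the IgE receptor was measured by 20 genes, all of them tested in fat. None was called in either direction, 9 had a negative difference, and the median log2 difference was 0.02. Plcg1, a phospholipase C, stood at 157.5 ± 21.7 CPM in WT and 145.5 ± 19.3 CPM in KO fat, (SD, n = 5 each). The calcium sensor gene Stim1 had a ratio of 0.985 (0.864 to 1.12). Itpr1, a calcium release channel, stood at 98.3 ± 11.2 and 118.9 ± 31.0 CPM, and the adaptor gene Grb2 at 74.1 ± 13.1 and 80.1 ± 11.6 CPM. The genes named here are used by most cells. They were named for their high level and do not stand for all 20. Of 16 genes for granule proteoglycan and lipid mediators, 0 were called and 10 were negative, with a median of -0.06. Ext2, a heparan sulfate polymerase, had a ratio of 0.926 (0.798 to 1.07), and Ext1, its partner, 0.959 (0.815 to 1.13). Ndst1, a sulfotransferase of the same chain, had a ratio of 1.05 (0.876 to 1.25) and Vamp8, a vesicle fusion gene, 0.892 (0.723 to 1.10).

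Of 10 genes for mast cell growth factors and IgE, 5 could be tested, 0 were called and 2 were negative (median 0.15). Kitl, the KIT ligand, stood at 98.9 ± 19.0 CPM in WT and 116.0 ± 17.8 CPM in KO fat, a ratio of 1.17 (0.931 to 1.47, adjusted p 0.743 by edgeR). Il33, an alarmin that mast cells sense, stood at 17.3 ± 8.17 and 10.9 ± 2.91 CPM, a ratio of 0.628 (0.383 to 1.03, adjusted p 0.687). Tgfb1 had a ratio of 1.12 (0.714 to 1.74). Il3, Il9 and Ighe, the heavy chain of IgE, were at 0 in every fat library (named after their values were seen). Of 7 histamine receptor and breakdown genes, 4 could be tested, 0 were called and 4 were negative (median -0.14). Hrh1, the H1 histamine receptor, stood at 3.01 ± 0.588 CPM in WT and 1.54 ± 0.632 CPM in KO fat, a ratio of 0.514 (0.317 to 0.834, adjusted p 0.687 by edgeR). Its WT range of 2.50 to 4.00 CPM lay above its KO range of 0.613 to 2.28 CPM, which held for 0.68% of all genes. Hrh2 had a ratio of 0.941 (0.627 to 1.41), the histamine methyltransferase gene Hnmt 0.944 (0.678 to 1.31) and Aldh7a1 0.875 (0.741 to 1.03).

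Markers of cells that share genes with mast cells were set beside these values. Of 6 basophil genes 3 could be tested (1 negative, median 0.04). The sum of all 6 lay at 12.7 to 19.6 CPM in WT and 11.9 to 16.2 CPM in KO fat. Il3ra had a mean of 12.3 CPM in WT fat, and no other gene of that list had a mean above 1.19 CPM there. Of 8 eosinophil genes 3 could be tested (2 negative, median -0.18), with sums over all 8 of 13.6 to 28.6 and 7.15 to 20.2 CPM. Ear2 and Alox15 had means of 11.5 and 6.79 CPM in WT fat, and no other gene of that list had a mean above 0.681 CPM there. The basophil and eosinophil sums thus rest on few genes and are not levels of these cells. Of 12 macrophage genes 10 were negative (median -0.27), and of 12 lymphocyte genes 9 (median -0.25). All 10 fibroblast and connective tissue genes were negative (median -0.31), as were all 7 erythroid genes (median -1.25), whose sum ran from 495.6 to 2971 CPM in WT and from 383.9 to 1221 CPM in KO fat. The 8 skeletal muscle genes were all negative too (median -1.11). Of 8 adipocyte genes 7 were negative (median -0.36), of 8 endothelial genes 1 (median 0.07) and of 8 smooth muscle genes 2 (median 0.34). In none of these lists was a gene called, and 49.9% of all genes were negative. Several blood, stromal, skeletal muscle and fat cell lists thus had negative medians in KO fat beside the proteases. Their part in the protease difference was not tested.

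Liver served as the reference tissue. The proteases were almost absent there: over all 10 liver libraries a protease had at most 7 counts in any library, and the sum of the 4 was at most 0.845 CPM. Summed over 5 WT libraries each, Tpsb2 had 379 counts in fat and 2 in liver, Cma1 445 and 8, Mcpt4 402 and 4, and Cpa3 313 and 9. With plain library totals the fat to liver ratio was 201 for Tpsb2 (95% counting interval 55.2 to 1664), 58.9 for Cma1 (29.6 to 137.3), 106.5 for Mcpt4 (41.3 to 392.6) and 36.8 for Cpa3 (19.2 to 81.3). With TMM scaling, edgeR gave smaller ratios, 86.0 for Tpsb2 (35.9 to 205.9), 29.5 for Cma1 (13.4 to 64.8), 49.96 for Mcpt4 (21.8 to 114.6) and 17.9 for Cpa3 (6.58 to 48.8). These 4 genes passed the filter only because of their level in fat. In the edgeR comparison of WT fat with WT liver they were called as higher in fat, with adjusted p-values of 8.48e-07, 3.88e-06, 1.71e-06 and 0.000116, where 38.4% of 14739 genes were called higher and 35.9% lower. In CPM, each of the 5 WT fat libraries was above each of the 5 WT liver libraries for these 4 genes, which held for 65.0% of all genes. That share rests on CPM scaled within each tissue, so it cannot be set beside the 38.4% of the edgeR fit.

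Fcer1a had 22 counts in WT fat and 0 in WT liver, so its level was at least 7.77-fold higher in fat, taking a floor of 3 counts over the 5 liver libraries and the fat counts as exact. The exact 95% counting interval of the ratio started at 5.80. Ms4a2 had 14 counts in WT fat and 1 in WT liver, a ratio of 14.8 with a counting interval of 2.26 to 627.1. Neither was tested.

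Hdc was higher in liver than in fat. It stood at 7.87, 10.1, 5.11, 12.8 and 12.4 CPM in WT liver and at 6.95, 4.11, 8.69, 6.30 and 6.23 CPM in KO liver. The lowest of them lay above 8 of the 10 fat libraries, while the proteases were near 0 in the same liver libraries. Between WT fat and WT liver Hdc differed by -2.07 on the log2 scale and was called lower in fat (adjusted p 0.000231 by edgeR). The size depends on the scaling of the tissues: with plain library sizes, a setting added later, the difference was -1.13 (adjusted p 0.0106), and the median over all genes moved from 0.04 to 0.97. Under that scaling 10593 genes were called higher in fat and 2246 lower, and with upper quartile factors 7168 and 3845, against 5663 and 5284 in the fit described. Liver Hdc is thus read where mast cell proteases are almost absent, and the cells that made it were not identified.

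Kit was not called between WT fat and WT liver with the scaling used (log2 difference 0.36, adjusted p 0.0725 by edgeR), but it was called with upper quartile factors (0.65, adjusted p 0.00262) and with plain library sizes (1.29, adjusted p 1.66e-05). It was also called without WT fat replicate 4 (adjusted p 0.0236) or without WT liver replicate 5 (0.0271). The levels were 7.87, 8.47, 7.16, 10.6 and 11.8 CPM in WT liver and 10.8, 9.27, 9.02, 7.60 and 9.67 CPM in KO liver. In CPM, every WT and KO fat library was above every liver library.

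Between KO and WT liver, only Hdc and Kit had enough counts for a test. Hdc had a mean of 6.46 ± 1.64 CPM in KO and 9.67 ± 3.23 CPM in WT liver (SD, n = 5 each), a ratio of 0.668 (0.465 to 0.960, adjusted p 0.342 by edgeR). The groups overlapped, with 1 KO library below the lowest WT library. Kit had a ratio of 1.01 (0.810 to 1.26, adjusted p 0.974). Of 13298 genes, 1 (0.00752%) was called by edgeR in liver and 1745 (13.1%) had a p below 0.05 before adjustment, Hdc among them. The 20 genes of the IgE receptor chain, all tested there too, had a median log2 difference of -0.32 in liver, with 19 negative and 0 called, and all 12 macrophage genes were negative (median -0.61), where 50.0% of all genes were negative.

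The difference of the KO effect between fat and liver was tested as an interaction over all 20 libraries. Fat and liver libraries share replicate numbers and may come from the same mice, which the labels do not say, and the fits across tissues treat them as independent. With the replicate number as a block, 10537 genes were called between WT fat and WT liver and 0 for the interaction. Of 15652 genes, edgeR called 0 (0.0%), with 839 (5.36%) below 0.05 before adjustment, among them Tpsb2, while DESeq2 called 2 and limma-voom 0. For Hdc, subtracting the KO effect in liver from that in fat gave a log2 value of -0.47 (SE 0.48, adjusted p 0.971 by edgeR), and for Kit 0.12 (SE 0.20, adjusted p 0.987). The proteases had adjusted p-values of 0.903 (Tpsb2) to 0.99997 (Cma1), and since liver held 0 to 7 counts of a protease per library, their interaction says little about liver. Hdc was thus lower by its mean in KO mice in both tissues, with no difference between the tissues that the test could show and with an interval of the ratio of ratios from 0.363 to 1.44.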

How the data were processed

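The authors deposited unnormalized expected counts, the RSEM estimate of reads per gene, in a table with 1 column for each of 20 libraries. Per the labels' protocols, Qiagen RNeasy extraction was followed by a stranded TruSeq mRNA preparation. Trim Galore 0.2.8, STAR 2.4.0d, DESeq2, RSEM 1.2.12 and the build GRCm38 are named by the submitters' processing notes. The annotation release and the strand setting were not given in the sources used here. Of 48440 gene IDs, 48058 were matched to a symbol in GENCODE M21.

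Rounded expected counts were filtered with filterByExpr (minimum count 10, minimum total 15) and scaled by TMM. Groups were compared with the robust quasi-likelihood test of edgeR 4.0.16 (with limma 3.58.1 in R 4.3.3), adjusted by Benjamini-Hochberg over all genes tested, with a threshold of 0.05. The comparisons were KO with WT within a tissue, WT fat with WT liver, and the KO effects of the tissues by an interaction over all libraries. CPM was scaled within each tissue, so a level in fat set beside one in liver rests on separate scaling, and log2 CPM used a prior count of 2. Pooled count ratios used plain library totals and exact 95% intervals, and the floor for a count of 0 is 3 counts. Correlations used 100000 permutations (scipy 1.17.1). The steps were tested on simulated counts.

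The 8 members and the 24 gene lists (226 symbols) were chosen with earlier results of these data known. The genes named are the members, up to 4 genes of a list with the highest mean in WT fat, and the 10 genes most like the score, with exceptions marked; 1 gene that this rule names is not reported here. The labels give 5 mice per group, and p-values measure the spread between those libraries. Alternatives were RLE and upper quartile scaling, DESeq2 1.42.0, limma-voom, other filters, a joint fit of both tissues, a block for the replicate number, and fits without each library. Leaving out sets of fat libraries with transcripts of other tissues, plain library sizes, and pooled ratios without KO fat library 1 were added after seeing the data.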

Additional observations from a re-analysis of the deposited data

Results flagged for a closer look

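Of 27 sets of 5 member values tested for a library that stands apart from the other 4, 3 were found, where chance gives about 1 in 20. All 3 rest on 10 or fewer counts. Fcer1a in KO fat library 1 stood at 0.753 CPM (10 counts), against 0 to 0.204 CPM in the other KO fat libraries. Ms4a2 in the same library stood at 0.527 CPM (7 counts), against 0.136 to 0.242 CPM. Ms4a2 in WT fat library 3 stood at 0.0695 CPM (1 count), below the 0.193 to 0.239 CPM of the other WT fat libraries. The protease sum in KO fat library 1 was 18.98 CPM, within the WT range.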

How the results depend on the processing

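In fat, no alternative called a member in KO against WT, and the median log2 difference of the tested members ran from -1.11 to -0.70 over the 10 fits without 1 library. Over all 21 alternatives it ran from -1.11 to -0.52, and the proteases and Hdc were lower in KO in each. The count of genes called in KO against WT fat was 13 with DESeq2 instead of 0. In liver it was 137 with DESeq2, 3 with limma-voom, 15 with no filter, 3 with the replicate block, 2 with all libraries in 1 fit and 0 to 3 without 1 library, instead of 1. For the interaction it was 2 with DESeq2 instead of 0. With no filter on low counts the members' median was 0.18 in liver (8 genes in place of 2) and -0.75 for the interaction. The median between WT fat and WT liver was 4.21 to 5.18 without 1 library and 5.43 with plain library sizes, instead of 4.52. The proteases in this median passed the filter only because of their level in fat, so a high positive value was fixed by the filter. Kit in liver changed sign with upper quartile factors (-0.000744) and limma-voom (-0.052), and ran from -0.058 to 0.125 without 1 library. In the interaction, limma-voom gave -0.17 for Cma1 and -0.21 for Mcpt4, and Cma1 ran from -0.39 to 1.54 without 1 library. The cause of these changes was not tested.

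The replicate number as a block called 0 genes in fat and gave a members' median of -0.99. Same-numbered WT and KO fat libraries deviated from their group means with correlations of -0.23 to 0.49. Their mean was 0.162, against -0.04 for libraries with other numbers, and 1 of 5 correlated best with its own number. With 5 pairs these values cannot decide whether such libraries share more than a number. In the other 3 pairs of groups the lowest correlation was -0.24, -0.08 and -0.02. Between WT fat and WT liver 2 of 5 libraries correlated best with their own number (mean 0.059, against -0.015 for other numbers). Between WT and KO liver it was 1 of 5 (-0.049 against 0.012), and between KO fat and KO liver 1 of 5 (0.022 against -0.005). Counting error limits Fcer1a and Ms4a2 throughout and the proteases in liver.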
